A study of Homo sapiens with 16 samples.

Results

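The open-chromatin peaks at 9 receptor tyrosine kinase genes that are studied in glioma were described in the 4 NicE-seq peak lists of a U87 experiment. The genes were EGFR, PDGFRA, PDGFRB, MET, FGFR1, IGF1R, AXL, KIT and KDR, 9 of the 19970 protein-coding genes placed on the build of the lists. They were chosen from earlier measured values of the same lists, so the counts below describe them. A peak belonged to a gene when it overlapped the gene's span extended by 10 kb on each side. Peaks of the 4 lists that overlapped by at least 1 bp were merged into regions, and 149 of the 183659 regions in the lists lay at these genes.

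The study asked whether AsiDNA and belinostat change chromatin accessibility in glioblastoma cells. AsiDNA is a short DNA molecule that mimics a broken DNA end and engages repair signalling, and belinostat blocks histone deacetylases, the enzymes that take acetyl groups off histones. The 16 libraries came from U87, a human line labelled as glioblastoma, and formed 4 groups of 4 libraries. The combination group was labelled Asi_Bel, the belinostat group Control_Bel, the AsiDNA group Asi_DMSO and the vehicle group Control_DMSO. The belinostat dose was 1 µM, over 24 h. The protocols name MTU87 and LTAU87 cells without saying which libraries came from which, and give neither an AsiDNA dose nor its duration. If the AsiDNA-labelled and control-labelled libraries came from different cells, AsiDNA and cell population cannot be told apart. Cells of all groups were fixed with formaldehyde, and the nicking enzyme Nt.CviPII with DNA polymerase I placed biotin in accessible DNA. The 4 libraries of a group share 1 deposited peak list, so no value below has a replicate spread and no comparison between groups has a test.

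Receptor tyrosine kinases span the cell membrane. A ligand brings receptor molecules together, the kinase domains phosphorylate each other, and adaptor proteins pass the signal to the RAS and PI3-kinase pathways. In glioblastoma, EGFR is the receptor most often amplified, and PDGFRA, MET, KIT and KDR can be amplified as well. EGFR binds EGF and related ligands. PDGFRA and PDGFRB bind platelet-derived growth factors, MET binds hepatocyte growth factor, FGFR1 binds fibroblast growth factors and IGF1R binds insulin-like growth factors. AXL binds GAS6, KIT binds stem cell factor, and KDR is a receptor for VEGF. Open chromatin marks promoters and enhancers that transcription factors and the transcription machinery can reach, and a peak by itself gives no level of transcription.

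The lists held 134865 peaks in the combination, 138937 with belinostat, 138273 with AsiDNA and 130318 with vehicle. Median peak width lay between 398 and 410 bp. Each peak carries the authors' fold enrichment over local background. Because this is not scaled between lists, it was used only as a percentile among the peaks of its own list, from 0 to 100. Of 8 glioma and mesenchymal line markers, the 7 with a known strand, among them VIM, CD44 and SOX2, had a start peak in every list, and SOX9 had one at both ends. Of 4 markers of other cell types with a known strand, PTPRC, RBFOX3, MOG and AIF1, 0 had a start peak in any list. For markers with no strand in the tables either gene end was counted. CD3E, KRT18 and SNAP25 had a peak at an end in every list, CDH5 in both belinostat lists, and PECAM1, CDH1 and EPCAM in no list. CDKN2A and CDKN2B, which U87 has lost, had 0 regions within 10 kb. Depth per library is unknown from peak lists, and the part of depth in any difference between lists was not tested.

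Promoter windows of 300 bases, from 250 before to 50 after the transcription start, show where the peaks sat on the DNA. Sequences are from RefSeq on GRCh38.p14, read 5′ to 3′ in the direction of transcription, and all are on the plus strand. Capitals mark bases that lay under a peak in every list, except in the last sequence. The main EGFR start was covered over 300 of 300 bases in every list. It has 3 matches to the GC box GGGCGG, searched on both strands, which 45.0% of 35116 promoter windows contain. The alternative EGFR start, inside the gene, was covered over 111 bases in the combination, 100 with belinostat, 99 with AsiDNA and 116 with vehicle. It has 2 matches to the AP-1 letters TGANTCA, found in 7.71% of windows. The match beginning 232 bases before the start lay under a peak in every list, and the match 136 bases before it did not.
EGFR main start, chr7:55018767-55019066: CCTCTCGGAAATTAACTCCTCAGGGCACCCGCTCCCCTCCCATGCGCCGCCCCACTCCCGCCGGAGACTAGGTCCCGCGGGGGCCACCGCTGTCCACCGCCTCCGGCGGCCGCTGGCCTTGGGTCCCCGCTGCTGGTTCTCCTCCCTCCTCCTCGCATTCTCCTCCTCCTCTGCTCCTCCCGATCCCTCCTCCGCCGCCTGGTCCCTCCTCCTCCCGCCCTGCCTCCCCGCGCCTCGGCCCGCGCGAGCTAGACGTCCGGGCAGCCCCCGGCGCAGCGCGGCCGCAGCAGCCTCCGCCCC
EGFR alternative start, chr7:55109589-55109888: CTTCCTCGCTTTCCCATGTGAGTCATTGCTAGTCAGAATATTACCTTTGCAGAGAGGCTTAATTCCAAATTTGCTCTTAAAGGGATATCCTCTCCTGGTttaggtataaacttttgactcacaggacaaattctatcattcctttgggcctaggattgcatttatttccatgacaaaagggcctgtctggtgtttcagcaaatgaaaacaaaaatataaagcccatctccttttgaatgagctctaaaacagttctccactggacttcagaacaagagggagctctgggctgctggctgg

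KIT and PDGFRA are shown because their main start windows had 0 of 300 bases under a peak in any of the 4 lists, unlike the other 6 members with a window. The enzyme nicks DNA at short motifs, so the letters set where it can act. The KIT window has 46 nick sites (CCA, CCG or CCT, both strands), against a median of 39.0 over all windows, and 38 CpG. The PDGFRA main window has 22 nick sites, below that median, and 8 CpG. Whether nick sites bear on the missing peaks was not tested. PDGFRA has an alternative start within the gene. Its window was covered over 27 bases in the combination, 79 with belinostat, 300 with AsiDNA and 112 with vehicle. Only 11 bases were common to every list, because the peak there was split around the start in the combination, belinostat and vehicle lists and was 1 peak of 1244 bp with AsiDNA.
KIT start, chr4:54657707-54658006: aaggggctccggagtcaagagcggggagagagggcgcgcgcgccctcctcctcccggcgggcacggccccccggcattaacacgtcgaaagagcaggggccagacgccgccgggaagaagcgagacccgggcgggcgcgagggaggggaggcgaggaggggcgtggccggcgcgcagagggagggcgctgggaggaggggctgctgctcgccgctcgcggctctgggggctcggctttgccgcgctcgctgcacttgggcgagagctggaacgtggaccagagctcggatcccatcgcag
PDGFRA main start, chr4:54229043-54229342: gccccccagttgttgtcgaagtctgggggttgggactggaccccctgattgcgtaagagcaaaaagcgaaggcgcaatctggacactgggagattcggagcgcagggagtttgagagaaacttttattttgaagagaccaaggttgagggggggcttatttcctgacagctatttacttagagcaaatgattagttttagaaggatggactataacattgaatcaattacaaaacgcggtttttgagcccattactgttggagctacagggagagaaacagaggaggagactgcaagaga
PDGFRA alternative start, chr4:54233710-54234009: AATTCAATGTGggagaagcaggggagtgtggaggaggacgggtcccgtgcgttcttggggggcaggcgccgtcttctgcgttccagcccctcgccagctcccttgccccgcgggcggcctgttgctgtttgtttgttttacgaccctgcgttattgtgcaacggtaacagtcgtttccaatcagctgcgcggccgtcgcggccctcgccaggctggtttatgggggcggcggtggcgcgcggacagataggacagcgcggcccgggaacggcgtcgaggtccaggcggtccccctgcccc

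AXL is shown because its alternative start was the only member window that belinostat lists covered and the lists without belinostat did not. The main AXL start was covered over 300 of 300 bases in every list. At the alternative start 219 bases lay under the combination peak and 239 under the belinostat peak, against 0 under the AsiDNA peak and 0 under the vehicle peak. The region itself was in every list. Its peak ended at base 41226723 in the combination and 41226743 with belinostat, against 41226501 with AsiDNA and 41226444 with vehicle. In the sequence of the alternative start, capitals mark the 219 bases under the peaks of both belinostat lists and of neither other list.
AXL main start, chr19:41218973-41219272: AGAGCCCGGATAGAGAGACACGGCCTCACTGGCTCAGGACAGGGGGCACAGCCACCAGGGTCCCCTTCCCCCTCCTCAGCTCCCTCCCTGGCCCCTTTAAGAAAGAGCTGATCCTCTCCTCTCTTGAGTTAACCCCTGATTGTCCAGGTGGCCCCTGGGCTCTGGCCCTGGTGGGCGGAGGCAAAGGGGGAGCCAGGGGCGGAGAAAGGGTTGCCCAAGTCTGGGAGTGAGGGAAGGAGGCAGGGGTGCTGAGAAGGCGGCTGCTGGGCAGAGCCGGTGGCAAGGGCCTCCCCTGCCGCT
AXL alternative start, chr19:41226505-41226804: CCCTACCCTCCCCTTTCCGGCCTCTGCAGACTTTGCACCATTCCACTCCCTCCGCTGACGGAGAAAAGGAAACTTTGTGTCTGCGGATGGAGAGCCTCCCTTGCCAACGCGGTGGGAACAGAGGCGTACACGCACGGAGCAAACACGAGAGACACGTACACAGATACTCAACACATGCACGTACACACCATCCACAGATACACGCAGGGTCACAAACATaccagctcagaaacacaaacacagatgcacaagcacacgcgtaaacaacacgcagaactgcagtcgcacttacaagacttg

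Most regions at the receptor genes had a peak in every list, whatever the treatment. These were 90 of the 149 regions, or 60.4% (Wilson 95% interval 52.4 to 67.9%, which covers counting error only), against 54.5% of the 112522 regions near protein-coding genes. Both belinostat lists and neither other list held 7 regions, 4.70% (2.29 to 9.38%), against a background of 6.27%. Both lists without belinostat and neither belinostat list held 9 regions, 6.04% (3.21 to 11.1%), against 4.86%. Both shares lie near their backgrounds, and their intervals include them. The 16 regions were spread unevenly over the genes: 5 of the 7 belinostat regions were in EGFR, with 1 each in PDGFRA and MET. MET had 3 of the 9 regions without belinostat, FGFR1 and IGF1R 2 each, and PDGFRB and AXL 1 each.

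**Figure D1:**
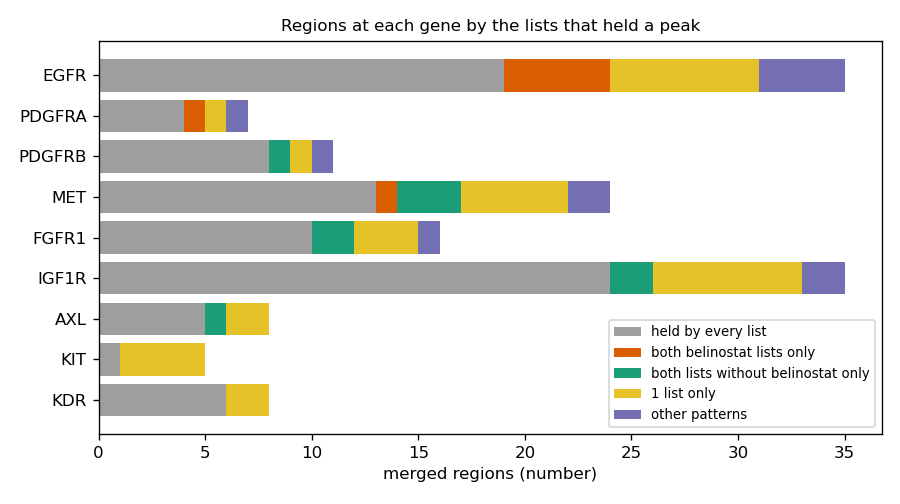
Bars count the merged regions at each of the 9 genes (x axis, number of regions), coloured by which of the 4 lists held a peak. Both belinostat lists alone held 5 EGFR regions and 1 MET region, and both other lists alone held 0 EGFR regions and 3 MET regions.

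Few regions split by AsiDNA, here or near other genes. Both AsiDNA lists and neither other list held 0 of 149 regions, which allows a share of up to 2.01% (3 counts), against a background of 1.09%. Both lists without AsiDNA held 0 others alone, against 0.789%, so at this number of regions neither share can be told from its background. The combination and vehicle lists together held 0 alone, against 0.592%. Both single-drug lists held 3 alone, 2.01%, against 1.29%. Regions in 1 list numbered 4 in the combination (background 3.99%), 9 with belinostat (6.33%), 10 with AsiDNA (6.20%) and 9 with vehicle (4.01%). A further 4 regions were missing from the vehicle list alone (background 3.61%).

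Most regions, 111 of 149, lay inside the genes. Of 11 regions within 1000 bp of a gene start, 8 were in every list. So were 3 of 3 at an alternative start and 4 of 5 at a gene end. Of these end regions, those of PDGFRB and AXL lie at the starts of the neighbouring genes CSF1R and HNRNPUL1. Inside the genes 65 of 111 were in every list. Shares by position over all genes were not computed, so these counts do not show a contrast particular to the members. The 7 regions of both belinostat lists lay inside genes. Of the 9 in both lists without belinostat, 6 lay inside genes, 1 in an upstream flank and 2 in a downstream flank. The tables used here give no exons, so positions inside a gene are not assigned to exons or introns.

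**Figure D2:**
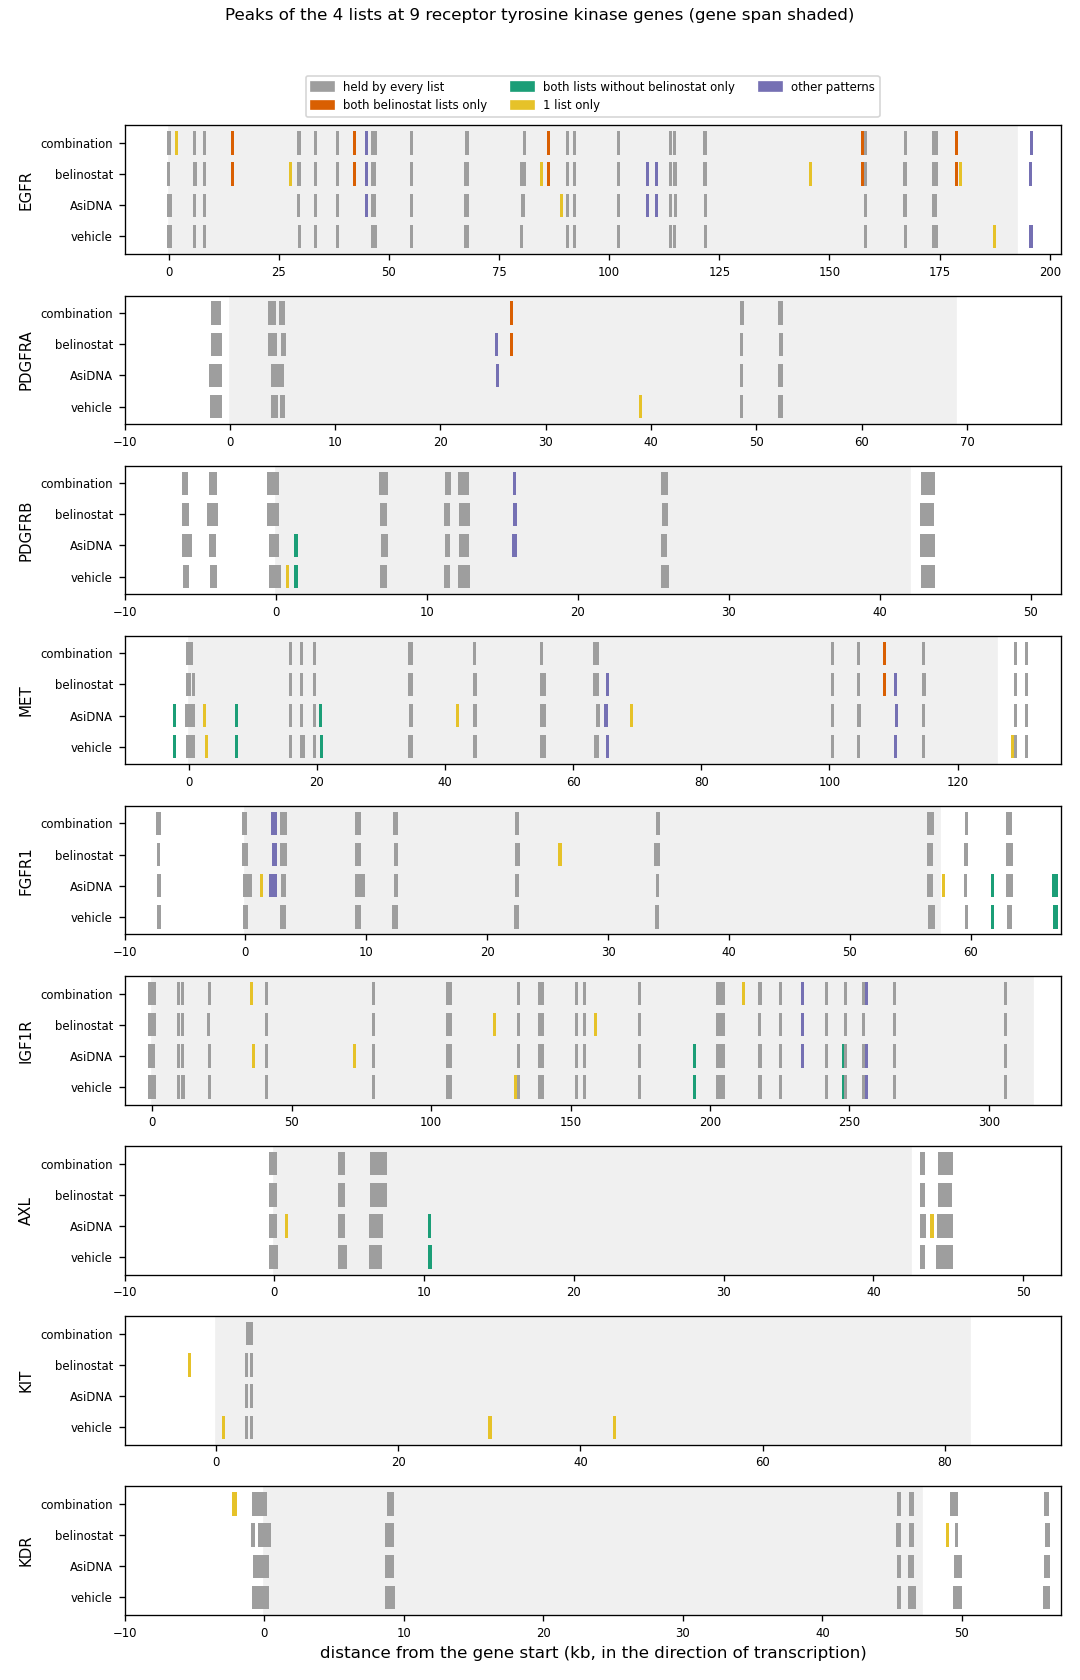
Each panel is 1 gene and each row 1 list, with peaks drawn by distance from the gene start in kb in the direction of transcription; the gene span is shaded and narrow peaks are widened to stay visible. Orange marks the 7 regions that both belinostat lists alone held and green the 9 that both other lists alone held.

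EGFR, the receptor for EGF, had more peaks in each belinostat list than in either list without it. Its span on chromosome 7, from 55019017 to 55211628, with the 10 kb flanks held 27 peaks in the combination and 33 with belinostat, against 23 with AsiDNA and 21 with vehicle. The span alone held 26 in the combination and 32 with belinostat, against 23 with AsiDNA and 20 with vehicle. Peaks covered 13784 bp in the combination and 14901 bp with belinostat, against 13309 bp with AsiDNA and 11411 bp with vehicle. Of its 35 regions, 19 were in every list. The 5 regions of both belinostat lists only were spread along the gene, at 14.5, 42.1, 86.1, 158 and 179 kb from the start. The strongest, chr7:55033254-55033714, ranked at percentile 52.6 in the combination and 61.8 with belinostat. The other 4 ranked between 1.56 and 33.5. Among 270 protein-coding genes with 30 to 40 regions, 7 (2.59%) had 5 or more regions of both belinostat lists only and 0 of the opposite kind, a rule chosen after the EGFR values were seen.

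The EGFR starts ranked in opposite ways. The region at the main start, chr7:55018588-55019874, ranked at percentile 68.5 in the combination and 68.6 with belinostat, against 53.0 with AsiDNA and 19.4 with vehicle. Its peak was narrower in the belinostat lists, 949 bp in the combination and 659 bp with belinostat, against 1198 bp with AsiDNA and 1109 bp with vehicle. At the alternative start, with the AP-1 letters shown above, the percentile was 42.6 in the combination and 35.5 with belinostat, against 67.4 with AsiDNA and 62.3 with vehicle. Both belinostat lists were thus on the same side of both other lists at each start, above at the main start and below at the alternative one. The main-start region also overlaps the start of LOC105375284, and the lists cannot separate the transcripts.

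PDGFRA, a receptor for platelet-derived growth factors, had few regions. Its span on chromosome 4, from 54229293 to 54298245, with the 10 kb flanks held 6 peaks in the combination and 7 with belinostat, against 5 with AsiDNA and 6 with vehicle. Every list held 4 of its 7 regions. No peak lay over the main start window, and the region counted at the start, chr4:54227271-54228542, ended 0.751 kb upstream. That region ranked at percentile 34.7 in the combination and 26.5 with belinostat, against 24.1 with AsiDNA and 25.3 with vehicle. At the alternative start, chr4:54232894-54234626, the percentile was 47.8 in the combination and 42.8 with belinostat, against 12.1 with AsiDNA and 19.8 with vehicle. The belinostat lists were the higher ones at both places, by little at the upstream region. The region in both belinostat lists only lay 26.8 kb inside the gene, at percentiles 22.1 in the combination and 45.1 with belinostat.

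PDGFRB, the related receptor carried by mesenchymal cells, was among the most densely covered members. Between 150113839 and 150155845 on chromosome 5, minus strand, and the flanks lay 9 peaks in the combination and 9 with belinostat, against 10 with AsiDNA and 10 with vehicle. Every list held 8 of its 11 regions. The start region, chr5:150155513-150156408, ranked at percentile 57.1 in the combination and 51.9 with belinostat, against 35.7 with AsiDNA and 29.0 with vehicle. The region in both lists without belinostat only lay 1.36 kb inside the gene, at percentiles 34.8 with AsiDNA and 36.6 with vehicle. The strongest region at PDGFRB, just past its end, overlaps the start of its neighbour CSF1R, the receptor for CSF1, and ranked between percentiles 86.7 and 97.5.

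MET, the receptor for hepatocyte growth factor, ran the other way from EGFR in numbers of peaks. Its span on chromosome 7, from 116672196 to 116798377, with the 10 kb flanks held 14 peaks in the combination and 17 with belinostat, against 22 with AsiDNA and 21 with vehicle. The span alone held 12 in the combination and 15 with belinostat, against 19 with AsiDNA and 17 with vehicle. Peaks covered 6946 bp in the combination and 7968 bp with belinostat, against 9607 bp with AsiDNA and 9123 bp with vehicle. Every list held 13 of its 24 regions. The 3 regions of both lists without belinostat lay 2.25 kb before the start and 7.52 and 20.6 kb after it. The strongest of them, chr7:116679612-116679827, ranked at percentile 53.9 with AsiDNA and 39.1 with vehicle. The single region of both belinostat lists lay 109 kb inside, at percentiles 5.99 in the combination and 18.5 with belinostat. Of 615 genes with 20 to 28 regions, 74 (12.0%) had 3 or more regions of both lists without belinostat and at most 1 of the opposite kind, a rule chosen after the MET values were seen.

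The MET start did not follow the count of peaks. Its region, chr7:116671707-116673039, ranked at percentile 77.7 in the combination and 63.5 with belinostat, against 40.8 with AsiDNA and 60.0 with vehicle. The start was thus ranked higher in both belinostat lists while the gene as a whole held fewer peaks there. The region also overlaps COMETT, a noncoding transcript annotated at this locus. The combination lacked 2 MET regions that the other 3 lists held, 65.2 and 110 kb from the start. Percentiles there were between 1.56 and 26.9.

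FGFR1, a receptor for fibroblast growth factors, had the highest density of regions of the 9 genes, 20.6 per 100 kb of span with flanks. From 38411143 to 38468635 on chromosome 8, with flanks, it held 11 peaks in the combination and 12 with belinostat, against 15 with AsiDNA and 12 with vehicle. The span alone held 8 in the combination and 9 with belinostat, against 9 with AsiDNA and 7 with vehicle. Its density thus includes flank regions that overlap other genes, and the order of the genes without flanks was not computed. The tables give no strand for FGFR1. Its start was taken as the high-coordinate end, since the gene is transcribed from the minus strand, and both ends had a peak in every list. Every list held 10 of the 16 regions. The start region, chr8:38468122-38468923, ranked at percentile 57.1 in the combination and 42.3 with belinostat, against 11.6 with AsiDNA and 29.4 with vehicle. Both FGFR1 regions of the lists without belinostat lay in the downstream flank, where other genes, LETM2 among them, are annotated, and not in FGFR1 itself.

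FGFR1 also held shared regions whose ranks were far apart, picked here after their values were seen. The region chr8:38434319-38434858, 34.0 kb inside, ranked at percentile 67.2 in the combination and 80.1 with belinostat, against 35.4 with AsiDNA and 37.3 with vehicle. The region chr8:38475577-38476072, 7.19 kb upstream, ranked at 19.5 in the combination and 7.64 with belinostat, against 57.8 with AsiDNA and 56.8 with vehicle. Of the 10 shared FGFR1 regions, 6 ranked higher in both belinostat lists and 2 lower, so other regions inside the gene went either way. At chr8:38445956-38446419 the percentiles were 79.9 in the combination and 76.4 with belinostat, against 72.6 with AsiDNA and 65.7 with vehicle. At chr8:38465215-38465796 the percentiles were 69.4 in the combination and 63.4 with belinostat, against 76.1 with AsiDNA and 78.5 with vehicle.

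IGF1R, the receptor for insulin-like growth factors, was the longest of the 9 genes. From 98648539 to 98964530 on chromosome 15, with flanks, it held 29 peaks in the combination and 28 with belinostat, against 31 with AsiDNA and 29 with vehicle. Every list held 24 of its 35 regions. The start region, chr15:98646983-98649884, was the widest at any member start, with 2015 bp under peaks in the combination and 2058 bp with belinostat, against 2129 bp with AsiDNA and 2577 bp with vehicle. Its percentiles did not order by belinostat, at 57.4 in the combination and 44.4 with belinostat, against 62.6 with AsiDNA and 36.9 with vehicle. The 2 regions of both lists without belinostat lay 194 and 248 kb inside, at percentiles between 15.9 and 33.4.

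AXL, the receptor for GAS6, held 5 peaks in the combination and 5 with belinostat, against 8 with AsiDNA and 6 with vehicle, in a span on chromosome 19 from 41219223 to 41261766 with the 10 kb flanks. The span alone held 3 in the combination and 3 with belinostat, against 5 with AsiDNA and 4 with vehicle. Every list held 5 of its 8 regions. The regions past the AXL end, among them chr19:41263392-41264555 in every list, overlap the neighbour HNRNPUL1. The AXL start region ranked at percentile 35.9 in the combination and 43.0 with belinostat, against 43.9 with AsiDNA and 28.2 with vehicle. The lists thus did not order by belinostat. The region chr19:41223443-41224052, 4.52 kb inside and picked after its values were seen, did: it ranked at 34.4 in the combination and 25.2 with belinostat, against 6.40 with AsiDNA and 4.71 with vehicle. The region at the alternative start, whose edge is shown in the sequence above, ranked at 71.9 in the combination and 73.9 with belinostat, against 79.3 with AsiDNA and 61.9 with vehicle. Its peak was 1090 bp wide in the combination and 1126 bp with belinostat, against 960 bp with AsiDNA and 916 bp with vehicle. The longer peaks in the belinostat lists therefore came without a higher rank than in the AsiDNA list.

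KIT, the receptor for stem cell factor, had the fewest regions, 5 over a span on chromosome 4 from 54657957 to 54740715 with the 10 kb flanks, 1 of them in the upstream flank. It held 1 peak in the combination and 3 with belinostat, against 2 with AsiDNA and 5 with vehicle. The only peak within 1000 bp of its start was in the vehicle list, at percentile 5.13, and a start peak in the vehicle list alone was found at 0.449% of genes with a known strand. A strong region, chr4:54661143-54662103, 3.67 kb inside, was in every list, at percentile 72.8 in the combination and 70.4 with belinostat, against 91.5 with AsiDNA and 78.5 with vehicle. In all, 3 regions were in the vehicle list only, the start peak among them. They ranked between 5.13 and 10.6. These are weak peaks, and at −log10 q of 5 or more 0 of them were left.

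KDR, a receptor for VEGF best known from endothelial cells, had a start peak in every list. The span on chromosome 4, from 55078481 to 55125595 on the minus strand, held 4 peaks in every list, and with the 10 kb flanks 7 peaks in the combination and 8 with belinostat, against 6 with AsiDNA and 6 with vehicle. Every list held 6 of its 8 regions, and 0 regions split by belinostat. The start region, chr4:55125135-55126505, ranked between percentiles 50.1 and 58.8 in the 4 lists. The region chr4:55116232-55116956, 9.0 kb inside, ranked at 77.6 in the combination and 83.6 with belinostat, against 99.0 with AsiDNA and 95.5 with vehicle. The region chr4:55075593-55076435, downstream, ranked at 13.1 in the combination and 22 with belinostat, against 61.5 with AsiDNA and 62.4 with vehicle. At both of these KDR regions, picked after their values were seen, the belinostat lists were the lower ones.

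The order of the genes by length under peaks was led by PDGFRB and closed by KIT in every list. PDGFRB had 81.1 bp under peaks per kb in the combination and 84.8 with belinostat, against 84.0 with AsiDNA and 85.2 with vehicle. KIT had 8.19 in the combination and 8.81 with belinostat, against 6.82 with AsiDNA and 13.4 with vehicle. PDGFRA came next to last, between 35.3 and 39.5. The other 6 genes lay between 47.5 and 81.3 and changed places between lists. EGFR had 64.8 in the combination and 70.1 with belinostat, against 62.6 with AsiDNA and 53.7 with vehicle. MET had 47.5 in the combination and 54.5 with belinostat, against 65.7 with AsiDNA and 62.4 with vehicle. With 1 list per group there is no spread by which neighbours in this order could be called different.

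**Figure D3:**
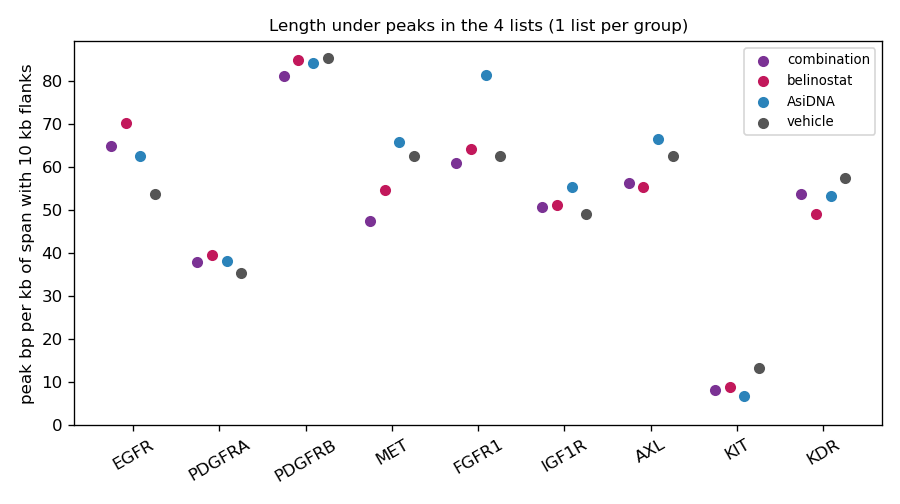
Points give, for each of the 9 genes and each list, the bp under peaks per kb of the gene span with its flanks (y axis). EGFR is highest in the belinostat lists, at 64.8 and 70.1, MET is lowest in them, at 47.5 and 54.5, and KIT lies below 13.5 in every list.

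Of the 9 members, 8 had a start peak in every list, KIT being the exception. Of the 8 members with a known strand, 7 had one, against 62.5% of 15812 genes with a known strand. Among the 8 start regions in every list, FGFR1 included, 5 ranked higher in both belinostat lists than in both lists without it. These were EGFR, PDGFRA, PDGFRB, MET and FGFR1. The background was 55.5% of start regions held by every list. At the members 0 start regions ranked lower in both belinostat lists, against 10.6%. Over all 90 shared regions, 39 (43.3%) ranked higher in both belinostat lists, against 37.6%, and 18 (20.0%) lower, against 25.0%. By gene, the regions higher and lower in both belinostat lists were 8 and 5 of 19 at EGFR, 3 and 0 of 4 at PDGFRA, 6 and 0 of 8 at PDGFRB, 4 and 2 of 13 at MET and 6 and 2 of 10 at FGFR1. They were 9 and 6 of 24 at IGF1R, 2 and 0 of 5 at AXL, 0 and 1 of 1 at KIT and 1 and 2 of 6 at KDR. The share at the 8 member starts, 5 of 8, lies near that of gene starts in general. A percentile that differs between lists of unequal length does not show a change of signal.

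**Figure D4:**
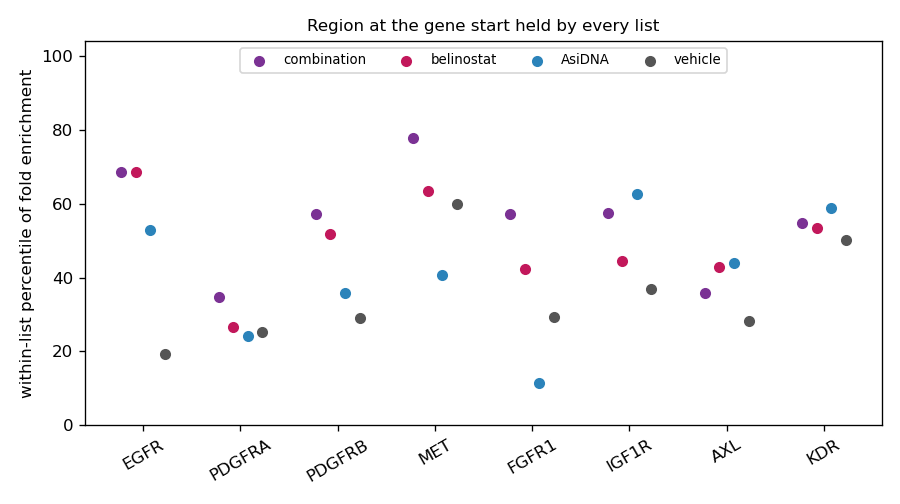
Points give the within-list percentile of fold enrichment (y axis) of the region at the gene start, for the 8 genes whose start region was in every list. EGFR, PDGFRA, PDGFRB, MET and FGFR1 have both belinostat lists above both other lists; IGF1R, AXL and KDR do not.

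The widths of shared regions differed little between lists. The median log2 ratio of summed peak length over the 90 regions was -0.006 for the combination over vehicle (95% interval of the median -0.069 to 0.066), -0.031 for the combination over AsiDNA and 0.017 for the combination over belinostat. It was -0.022 for belinostat over vehicle and 0.013 for AsiDNA over vehicle. Peaks were wider in both belinostat lists in 14 of the 90 regions, against a background of 20.3%, and narrower in 23, against 28.2%. The region with the largest ratio of belinostat lists to the others, chr15:98800019-98801085 in IGF1R, had 972 bp in the combination and 1067 bp with belinostat, against 623 bp with AsiDNA and 525 bp with vehicle. Next came chr7:55140318-55141166 in EGFR, with 817 bp in the combination and 848 bp with belinostat, against 521 bp with AsiDNA and 450 bp with vehicle. Both lie inside their genes, whereas the EGFR start, given above, was among those that were narrower in the belinostat lists.

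Pairs of lists were also set side by side, counting peaks with no overlapping peak in the other list. In the combination 16 of 109 peaks had no counterpart with vehicle, 14.7% against a background of 20.1%, and 21 of 116 vehicle peaks had none in the combination, 18.1% against 16.7%. Against AsiDNA, 12 combination peaks had no counterpart, 11.0% against 17.2%, and 24 of 122 AsiDNA peaks had none in the combination, 19.7% against 19.2%. MET gave 8 of those 24. Against belinostat, 5 combination peaks had no counterpart, 4.59% against 10.9%, and 15 of 122 belinostat peaks had none in the combination, 12.3% against 13.7%. EGFR gave 7 of those 15. With lists cut to equal length these counts were 7 and 7. In all 3 pairs the share of combination peaks without a counterpart was below its background, a difference that was not tested.

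With belinostat alone, 24 of 122 peaks had no counterpart with vehicle, 19.7% against 22.7%, and 19 of 116 vehicle peaks had none with belinostat, 16.4% against 16.8%. EGFR held 13 of those 24 belinostat peaks and 1 of the 19 vehicle peaks, while MET held 1 and 5. With AsiDNA alone, 17 of 122 peaks had no counterpart with vehicle, 13.9% against 16.1%, and 10 of 116 vehicle peaks had none with AsiDNA, 8.62% against 10.4%. With lists cut to equal length the belinostat and vehicle counts were 17 and 24, so which of the 2 is larger depends on list length. The shares at the members lie near their backgrounds, and the differences were not tested. These pairs share lists, and their counts are not independent of each other.

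The regions that split by belinostat were among the weaker ones. The median percentile was 20.4 for regions of both belinostat lists, 21.1 for those of both lists without belinostat and 9.25 for those in 1 list, against 62.2 for regions in every list. Near all protein-coding genes the medians were 25.7, 27.6, 13.1 and 64.8 in the same order. Median width was 335 bp for regions of both belinostat lists and 274 bp for those of both lists without it, against 644 bp for regions in every list. A region near the calling threshold can be present in 1 list and absent from another with little difference in signal, and the part of that in these counts was not tested. The 7 regions of both belinostat lists lay a median of 4.04 kb from the nearest region in every list (background 5.14 kb), and the 9 of both lists without it 1.62 kb (background 5.62 kb).

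**Figure D5:**
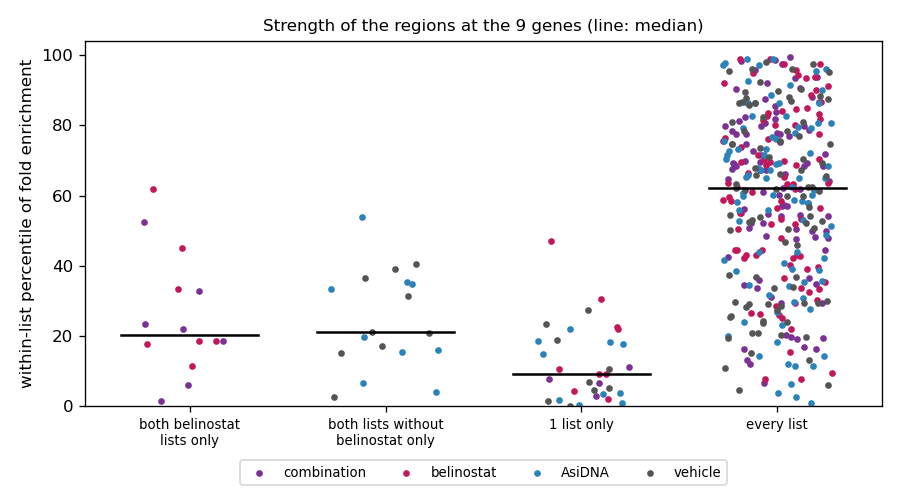
Points give the within-list percentile (y axis) of each region at the 9 genes in each list that held it, by presence pattern; the line is the median. Regions that split by belinostat sit mostly below percentile 50, with medians of 20.4 where both belinostat lists held them and 21.1 where both other lists did; regions in every list have a median of 62.2.

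The rest of the signalling system was described by lists of genes made with earlier results known. The 49 other receptor tyrosine kinases held 568 regions, against 149 at the 9 members. Both belinostat lists alone had 7.57% of them, against 4.70% at the members, and both lists without belinostat alone had 4.75%, against 6.04%. The 25 ligands of the members held 224 regions, with 9.38% and 2.68%. For 30 adaptors and signal relays the shares were 5.79% and 3.86%, and for 20 negative regulators 6.23% and 3.50%. At the members the 7 and 9 regions behind these shares become 7 and 6 without the flanks, so their order depends on the flank. Start peaks in every list were found at 22 of 43 other receptor kinases and 14 of 20 ligands with a known strand. Among adaptors and relays it was 23 of 23, and among negative regulators 15 of 15.

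Start peaks that depended on the list were found at 5 other receptor kinases and 1 ligand, and most were weak. DDR1, a collagen receptor, had one in both AsiDNA lists, at percentile 31.4 in the combination and 7.47 with AsiDNA. FGFR4 had one at 19.6 with belinostat and 5.67 with vehicle. NTRK2, a receptor for BDNF, had one at 9.68 with AsiDNA and 27.4 with vehicle, and TEK, the angiopoietin receptor, one at 18.9 with vehicle. LTK had one in every list but the combination, between 4.27 and 5.87. PDGFA, a ligand of PDGFRA, had one at 50.8 with AsiDNA and 1.18 with vehicle and none in either belinostat list. Of its 4 merged regions, however, 3 were in every list and 0 in both lists without belinostat only. At least 1 of these PDGFA start peaks thus lay in a region that a belinostat list also held. In such a region the peak of the belinostat list lay too far from the start to count, so the split alone does not show a lost region. Whether the other PDGFA start peak lay in the same region was not determined. The densest genes were EPHB6 (19.4 regions per 100 kb of span with flanks) and LMTK3 (18.6) among receptor kinases. Among ligands they were HBEGF (29.6) and EREG (20.6), both ligands of EGFR. The sparsest were EPHA6 (0.414) and EPHA7 (1.00), and VEGFD (1.70) and PDGFD, which had 0 regions. INSRR, with no strand in the tables, had a peak in both belinostat lists at its low-coordinate end. At its high-coordinate end it had one in both AsiDNA lists. Of other genes without strand, EPHA10 had a peak at an end in the AsiDNA list. FGF9 had one in every list but the combination and IGF2 in both belinostat lists.

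Among relays the densest were FRS3 (20.2 per 100 kb) and SHC1 (18.7) and the sparsest HRAS (4.29) and SOS2 (4.45). Among negative regulators SOCS3 (33.1) and SPRY2 (23.9), feedback inhibitors of receptor signalling, were the densest, and LRIG3 (5.85) and CBL (6.57), a ubiquitin ligase for receptors, the sparsest. The members, flanks included, ran from FGFR1 at 20.6 through PDGFRB at 17.7, EGFR at 16.5 and MET at 16.4 to AXL at 12.8. Below these came KDR at 11.9, IGF1R at 10.4, PDGFRA at 7.87 and KIT at 4.87. The median of 6709 genes with spans of 40 to 320 kb was 7.96, so 7 members were above it and PDGFRA and KIT below. The receptor kinases nearest to each member in bp under peaks per kb over the 4 lists were DDR1 for EGFR (mean absolute difference 4.23 bp per kb), AATK for PDGFRA (1.63), LMTK3 for PDGFRB (15.6) and LTK for MET (4.90). For FGFR1 and AXL it was CSF1R (5.04 and 3.05), for IGF1R EPHB2 (1.75), for KIT FGFR2 (1.85) and for KDR EPHA1 (2.06). The second nearest were LMTK3 for EGFR (5.31), ERBB2 for PDGFRA (3.09), CSF1R for PDGFRB (21.6) and MET (5.60), TYRO3 for FGFR1 (6.65) and AXL (4.16), STYK1 for IGF1R (1.82), NTRK2 for KIT (2.60) and EPHB3 for KDR (2.90).

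The 10 kb flank sets which regions count. The outermost regions just inside it were 8.70 kb from KDR, in every list, and 9.23 kb from FGFR1, in both lists without belinostat only. The nearest outside it were 11.1 kb from PDGFRA and 11.4 kb from MET, both in every list.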

How the data were processed

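NicE-seq was measured in 16 U87 libraries, grouped by the treatment field of the labels. The build was hg38, and MACS2, deepTools, Picard, SAMtools, Bowtie2 and Trim Galore 0.5.0 are named, per the submitters' processing notes. No source used here gives their options or how the 4 libraries of a group became 1 list. The deposited lists give each peak a fold enrichment (a ratio), a p-value and q-value as −log10 (the p-value was not used), a score of about 10 times −log10 q (not used) and a summit offset, all values of the authors' peak caller.

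From these, peaks on chromosomes 1 to 22 and X were joined to gene spans with 10 kb flanks and merged into regions with Python 3.11.15, numpy 2.4.6 and pandas 2.3.3, after the steps were tested on simulated data. Genes, strands and starts came from RefSeq tables (GRCh38.p14, the build of the files). A gene start or end had a peak when one came within 1000 bp. For gene lists, starts were counted only where strand is known, and otherwise either gene end. Intervals are Wilson 95% intervals and, like the limit for a count of 0, cover counting error only. Depth is unknown, and no test between groups was made.

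The members and lists were chosen with earlier results of these data known. All 9 members are named. Of other lists, genes with a start peak in some lists only, the 2 genes with most and the 2 with fewest regions per 100 kb, and the 2 receptor kinases nearest to each member are named. Alternatives changed the q threshold, list length, overlap rule, flank, window, width and ranked value. The result for 1 marker gene is not reported here.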

Additional observations from a re-analysis of the deposited data

Results flagged for a closer look

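With 1 list per group, the results here are those, among presence patterns, length under peaks per gene, start percentiles and the 10 shared regions with the most extreme width ratios, in which belinostat went one way without AsiDNA and the other way with it; the difference was not tested in any of them. Peaks in both single-drug lists and in neither other list were found at chr7:55127669-55127889 and chr7:55129679-55129889 in EGFR and chr4:54254508-54254768 in PDGFRA, so that the number of peaks differed by -1 for the combination minus AsiDNA and by 1 for belinostat minus vehicle. Their percentiles lay between 1.47 and 11.4. Widths of the 90 shared regions went opposite ways in this sense in 45 (50.0%), against 37.8% of shared regions near all protein-coding genes. Of the 10 extreme ones it was the case at 1. The MET region chr7:116726956-116728032 had 285 bp under peaks in the combination and 1043 bp with belinostat, against 922 bp with AsiDNA and 989 bp with vehicle (-637 for the combination minus AsiDNA, 54 for belinostat minus vehicle).

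The same opposition was seen in the length under peaks at 5 of the 9 genes. How often it occurs over all protein-coding genes was not counted, for these lengths or for the start percentiles below. For the combination minus AsiDNA and for belinostat minus vehicle it was -26 and 367 bp at PDGFRA, -1584 and 115 bp at FGFR1, and -1562 and 671 bp at IGF1R. It was 141 and -468 bp at KIT, and 24 and -564 bp at KDR. The percentile of the start region differed by -5.1 and 7.5 at IGF1R, by -8.0 and 14.8 at AXL and by -4.0 and 3.2 at KDR.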

How the results depend on the processing

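All alternatives were planned. The counts of regions in every list (77 to 124, reported 90), in both belinostat lists only (7 to 9, reported 7) and in both lists without belinostat only (6 to 11, reported 9) stayed within 1.5 times the reported values, as did the count of member starts with a peak in every list (7 or 8). With the widest single peak the median log2 width ratio was 0.025 for the combination over belinostat and -0.019 for belinostat over vehicle, and the other 3 kept their values. Ranked by −log10 q, 4 start regions in place of 5 were higher in both belinostat lists, and of all shared regions 35 in place of 39 were higher and 20 in place of 18 lower. Smaller counts moved more. With −log10 q of 5 or more the regions in the vehicle list only numbered 0 at KIT and 1 at MET, and belinostat peaks with no counterpart in the combination numbered 8 in place of 15. With lists of equal length that last count was 7, the same as for combination peaks with none with belinostat (reported 5). Belinostat peaks with no counterpart with vehicle were then 17 in place of 24, and vehicle peaks with none with belinostat 24 in place of 19, which turns their order. Without a flank the regions of both belinostat lists only and of both lists without belinostat only were 7 and 6, which turns their order. FGFR1 then had 0 of the second kind, and MET had 1 region in the vehicle list only. With a flank of 50 kb, 39 AsiDNA peaks in place of 24 had no counterpart in the combination, 9 combination peaks in place of 5 had none with belinostat, and 27 AsiDNA peaks in place of 17 had none with vehicle. With summits within 250 bp, 9 combination peaks had none with belinostat. The 50% overlap and the summit rule were applied to pairs of lists only, since merged regions have no such setting. With 1 list per group and depth unknown, none of these counts can be set against a replicate spread. No paired analysis was possible because each group has 1 peak list and its columns carry no replicate number.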
